A study of Mus musculus with 234 samples.

Results

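The mitochondrial ribosomal protein genes of single cardiomyocytes (CMs) were taken by symbol from the deposited table of gene counts: *Mrpl* or *Mrps* with a number and at most 1 further letter, without pseudogenes, and with a count in at least 10% of all 234 cells. The pattern matched 78 of 55538 listed genes, and 77 of them met the minimum. The gene left out was *Mrpl53*, which had 0 counts in the whole table. Only 12% of its exonic length is free of the exons of other genes in GENCODE M21, and reads on shared exons may not have been counted for it. Of the 77 genes, 50 encode proteins of the large subunit, 26 proteins of the small subunit, and *Mrps36* encodes a protein that is known today as a subunit of the oxoglutarate dehydrogenase complex. The large subunit includes *Mrps30* and *Mrps18a*, whose proteins sit there in spite of the S in their names.

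The mitochondrial ribosome (mitoribosome) translates the few proteins that mitochondrial DNA encodes, all of which are inner membrane subunits of the oxidative phosphorylation complexes. Its rRNAs are made inside the organelle, whereas all of its proteins are encoded in the nucleus, made on cytosolic ribosomes and imported, so that assembly needs proteins in matched amounts. CMs are rich in mitochondria, and inherited defects of several of these proteins, among them MRPL3, MRPL44, MRPS14 and MRPS22, are known to cause cardiomyopathy in humans.

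The study asked how human BAG3 with the P209L change, fused to eGFP, alters the heart. CMs were isolated by Langendorff dissociation, picked by hand and sequenced with SMART-seq2, a full-length method without molecular identifiers. The labels name each mouse by a number, written here after an M, and split transgenic CMs by eGFP fluorescence into bright and dim. There were 24 control CMs (labelled wt, genotype control, strain C57BL/6) of mouse M26 and 9 of mouse M73. Mouse M25, homozygous (PGKcre:BAG3P209L_homo), gave 21 bright and 18 dim CMs, mouse M116, of the same genotype, 59 bright and 50 dim CMs, and mouse M72, the only heterozygous animal (PGKcre:BAG3P209L_het), 27 bright and 26 dim CMs. The transgene carries the CAG promoter and is switched on when ubiquitous PGK-Cre removes a floxed STOP cassette, and homozygous mice may have lost the cassette on a single allele or on both. The mice have a mixed background of 129S6/SvEvTac, C57BL/6Ncr and CD-1, and the study describes its control animals as siblings that can be wild type or carry either PGK-Cre or the floxed transgene alone. The mice were 2 weeks old, whereas the age of mouse M72 is not given.

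For every mouse and fluorescence class the counts of its cells were added up into a sum, and the 8 sums held between 4096609 (mouse M73) and 40508124 counts. The human BAG3 feature reached 0.41 and 0.49 CPM (counts scaled to the total of the sum) in the control sums of mice M26 and M73, 294 and 233 CPM in the bright CMs of M25 and M116, and 10.7 and 99.6 CPM in their dim CMs. In mouse M72 it was lower in the CMs labelled bright (105 CPM) than in those labelled dim (251 CPM), against the order of the labels. The 7 CM markers were present in all 8 sums, at a summed 53023 to 68446 CPM. Endothelial markers summed to 54.6 to 194 CPM, immune markers to 0.26 to 72.7 CPM with *Ptprc* at 0 in 6 of 8 sums, and mural markers to 323 to 1642 CPM, of which *Acta2* made up 241 to 1620 CPM. Fibroblast markers lay between 22.9 and 468 CPM in 7 sums and at 2238 CPM in bright CMs of mouse M25. In that sum 3 wells stood apart, with 514, 1777 and 4521 CPM of CM markers, while every other cell of the study had at least 29727 CPM. The first of these held 44924 CPM of fibroblast markers. The 77 genes summed to 1993, 30.3 and 2618 CPM in the 3 wells, which lowered the sum of bright CMs of mouse M25 from 7217 to 6832 CPM.

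All members were widely detected. A count was present in 41.0% (*Mrps18b*) to 95.7% (*Mrpl42*) of cells, with a median of 85.9% over the 77 genes, and 17 genes were seen in at least 90% of cells. Levels per length were obtained as normalized CPM (CPM that also take the TMM factor into account) divided by the length of the longest coding transcript in GENCODE M21, as mean ± SD of the 8 sums. *Mrpl42*, a large-subunit protein without a bacterial counterpart, was far above all others by this measure, with 822 ± 204 normalized CPM per kb. *Mrps21* (259 ± 65.4), *Mrpl30* (245 ± 65.7), *Mrpl34* (197 ± 56.8) and *Mrpl54* (192 ± 35.3) followed, and neighbours among these 4 differed by less than their SD. The ranks depend on the length used, since the longest coding transcript of *Mrpl42* has 666 bp and its exons together 3682 bp. Without regard to length *Mrpl42* was also the highest (548 normalized CPM), followed by *Mrpl51* (248 normalized CPM). The lowest levels per kb were those of *Mrpl19* (6.06 ± 1.83) and *Mrps18b* (6.11 ± 2.7). The long transcript annotated for *Mrpl19* (5000 bp) enters this value, since its level without regard to length (30.3 normalized CPM) was above that of *Mrps18b* (6.59 normalized CPM). Large-subunit genes had a median level of 52.3 and small-subunit genes one of 37.9 normalized CPM per kb, and genes with a bacterial counterpart (48 genes) had 53.9 against 28.7 for those without (28 genes). The most abundant 5 genes by normalized CPM held 22% of the summed level of all 77 genes.

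**Figure D1:**
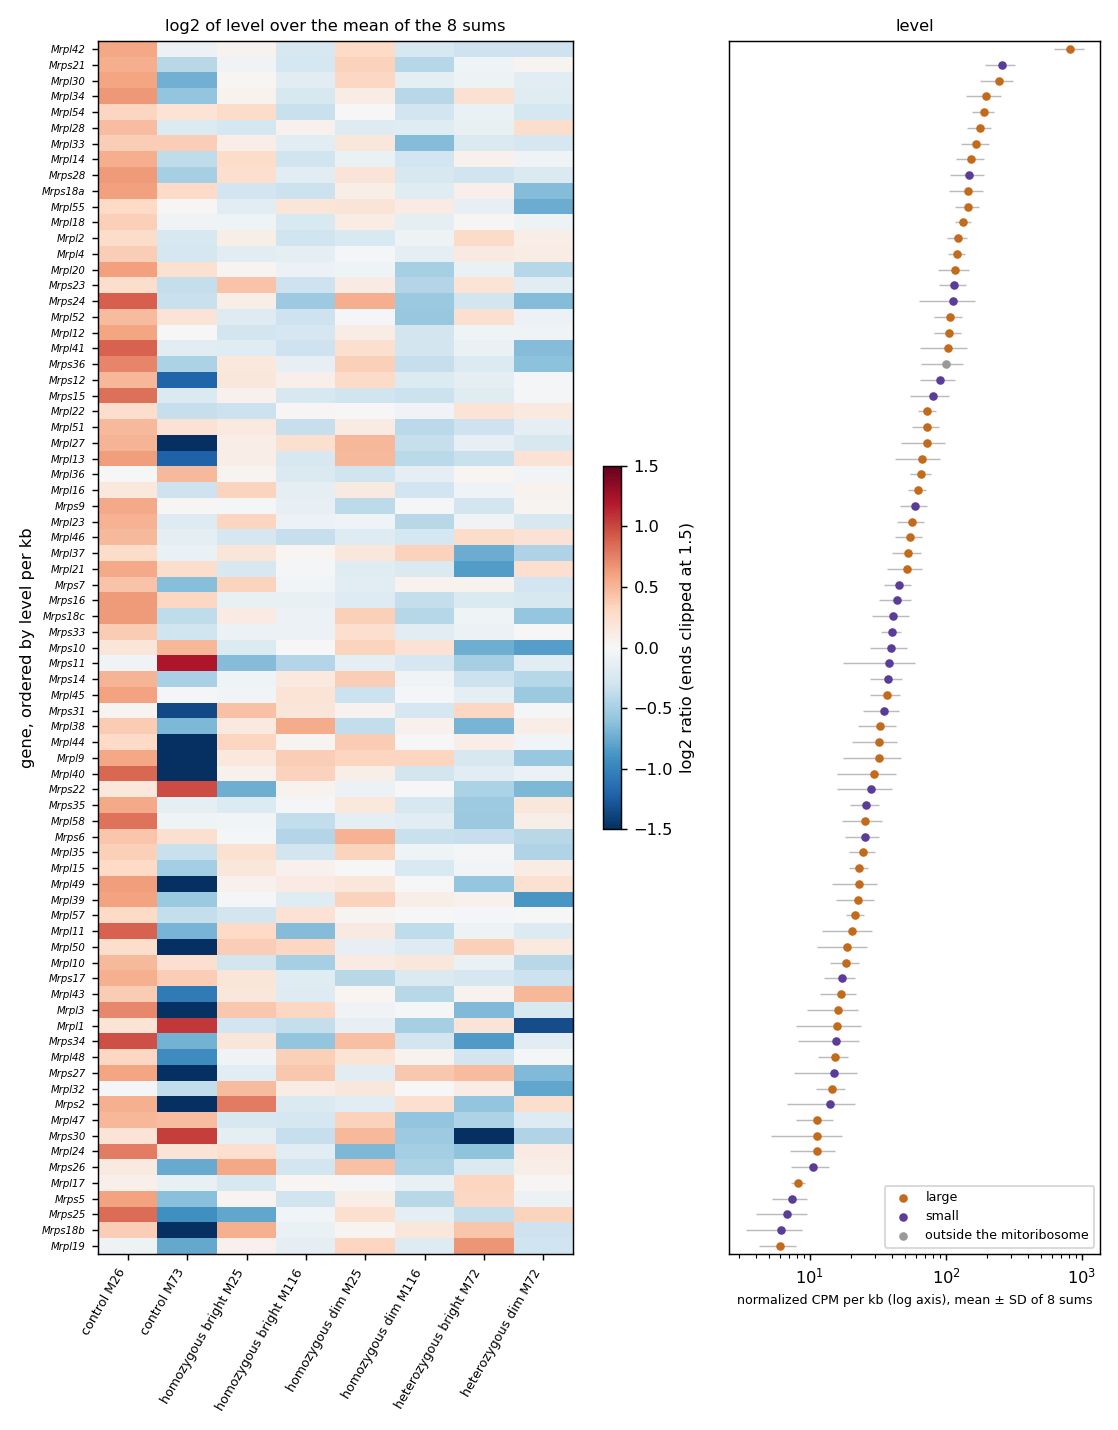
The 77 genes in rows, ordered by their level per kb. The colours on the left show the log2 ratio of the normalized CPM in each of the 8 sums to the mean of the 8 sums, and the points on the right show normalized CPM per kb on a log axis (mean ± SD of 8 sums, coloured by subunit). *Mrpl42* stands above the rest at 822 normalized CPM per kb, the column of control mouse M26 is red in most rows, and that of control mouse M73 holds most of the darkest blue cells.

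The region around the transcription start was read for 68 of the 77 genes from RefSeq windows on GRCm38.p6, each from 250 bases before to 50 bases after the start (300 bases). The windows shown are those of the most abundant member, of *Mrps11*, which had the largest negative difference between bright and control CMs, and of the *Mrps18* paralogs, whose levels are compared further on. Capitals mark matches on either strand to AAGATGGCG (the core of YY1 sites), CCGGAAG (bound by ETS factors such as GABPA, also called NRF-2) or GCATGCGC (part of the NRF-1 site).

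Mrpl42, chr10:95501900-95502199, minus strand: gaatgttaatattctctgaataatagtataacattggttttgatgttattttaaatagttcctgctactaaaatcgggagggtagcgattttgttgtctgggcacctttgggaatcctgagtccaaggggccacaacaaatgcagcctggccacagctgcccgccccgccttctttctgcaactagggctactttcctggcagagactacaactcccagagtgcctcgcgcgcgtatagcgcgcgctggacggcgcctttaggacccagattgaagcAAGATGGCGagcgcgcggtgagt
Mrps11, chr7:78782881-78783180, plus strand: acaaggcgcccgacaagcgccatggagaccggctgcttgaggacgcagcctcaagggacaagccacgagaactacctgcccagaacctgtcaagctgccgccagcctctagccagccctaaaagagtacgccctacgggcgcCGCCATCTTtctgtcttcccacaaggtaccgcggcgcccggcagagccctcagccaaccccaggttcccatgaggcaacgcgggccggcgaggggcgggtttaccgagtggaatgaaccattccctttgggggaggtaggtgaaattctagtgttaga
Mrps18a, chr17:46110754-46111053, plus strand: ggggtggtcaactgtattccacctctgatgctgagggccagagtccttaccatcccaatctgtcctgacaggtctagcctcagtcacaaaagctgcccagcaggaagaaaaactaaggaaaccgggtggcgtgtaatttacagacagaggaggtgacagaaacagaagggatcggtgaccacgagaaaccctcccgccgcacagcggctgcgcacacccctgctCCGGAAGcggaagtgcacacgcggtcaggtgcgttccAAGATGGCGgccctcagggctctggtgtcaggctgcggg
Mrps18b, chr17:35916391-35916690, minus strand: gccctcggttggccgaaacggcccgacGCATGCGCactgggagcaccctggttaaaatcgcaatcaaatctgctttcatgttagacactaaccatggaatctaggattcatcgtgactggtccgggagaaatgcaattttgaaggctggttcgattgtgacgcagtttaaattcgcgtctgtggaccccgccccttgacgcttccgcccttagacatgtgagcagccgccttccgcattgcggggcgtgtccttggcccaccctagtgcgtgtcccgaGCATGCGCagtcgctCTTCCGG
Mrps18c, chr5:100798509-100798808, plus strand: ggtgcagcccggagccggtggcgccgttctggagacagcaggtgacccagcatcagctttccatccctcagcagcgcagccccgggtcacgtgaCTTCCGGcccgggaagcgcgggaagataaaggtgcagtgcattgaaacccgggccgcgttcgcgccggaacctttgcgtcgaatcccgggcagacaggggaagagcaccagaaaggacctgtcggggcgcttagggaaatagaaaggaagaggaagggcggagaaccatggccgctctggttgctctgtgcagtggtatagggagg

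In *Mrpl42* the YY1 core began 27 bases after the start, and in *Mrps18a* 11 bases after it, with an ETS match 26 bases before the start. *Mrps18b* held GCATGCGC on either side of its start (223 bases before and 28 bases after) and an ETS match at the end of the window. The *Mrps11* window is also the promoter of *Mrpl46*, a large-subunit gene read from the other strand, whose start lies 42 bp away. A start of another gene within 1000 bp upstream on the opposite strand was present for 25 of the 68 members (36.8%), compared to 18% of the windows of all genes tested in CMs and 10.5% of all windows. CCGGAAG was found in 24 of 68 members (35.3%), in 19.6% of 8877 tested genes and in 9.12% of all windows. GCATGCGC was found in 8 members (11.8%), in 5.78% of tested genes and in 2.80% of all windows, and AAGATGGCG in 8 members (11.8%), in 3.57% of tested genes and in 1.49% of all windows. AAGGTCA, the core bound by estrogen-related receptors, was found in 4 members (5.88%), in 3.01% of tested genes and in 4.66% of all windows. At least 1 of these 4 motifs, none of which contains another, was present in 36 of 68 members (52.9%), in 29.1% of tested genes and in 16.8% of all windows. CCAAT was about as frequent in members (38.2%) as in tested genes (38.9%). Among related genes, CCGGAAG was found in 39.1% of 64 cytosolic ribosomal protein genes and in 12.5% of 32 nuclear complex I genes. In the same order, GCATGCGC was found in 3.1% and 9.4%, AAGATGGCG in 6.25% and 15.6%, and AAGGTCA in 6.25% and 9.4%. A start on the opposite strand was present for 17.2% and 28.1%. For CCGGAAG, AAGATGGCG and AAGGTCA a related group was thus above the members. All of these are matches of letters, and binding was not measured.

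The summed level of the 77 genes did not separate the groups. It was 8157 CPM in control mouse M26 and 4643 CPM in control mouse M73, 6832 and 6449 CPM in homozygous bright CMs (mice M25 and M116), 7092 and 6003 CPM in their dim CMs, and 5525 and 5813 CPM in bright and dim CMs of mouse M72. In CPM the control mice were the highest and the lowest of all sums and enclosed every transgenic value. In normalized CPM dim CMs of mouse M116 (5493) lay just below mouse M73 (5515). Group levels were 6400 ± 2485 CPM for control, 6640 ± 271 CPM for homozygous bright and 6547 ± 770 CPM for homozygous dim CMs (mean ± SD, n = 2 mice each). In normalized CPM they were 7214 ± 2403, 6154 ± 506 and 6172 ± 960, so that control turned from the lowest to the highest group, with differences below the SD of control on either scale. Poisson intervals at the 95% level were narrow (8117 to 8197 CPM for mouse M26, 4577 to 4709 CPM for mouse M73) and cover counting error only, which is below the spread between mice. Within mouse M116 the level varied by plate, with 5955 and 6965 CPM in bright CMs and 5748 and 6374 CPM in dim CMs on plates GL9989-2 and GL9989-3.

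**Figure D2:**
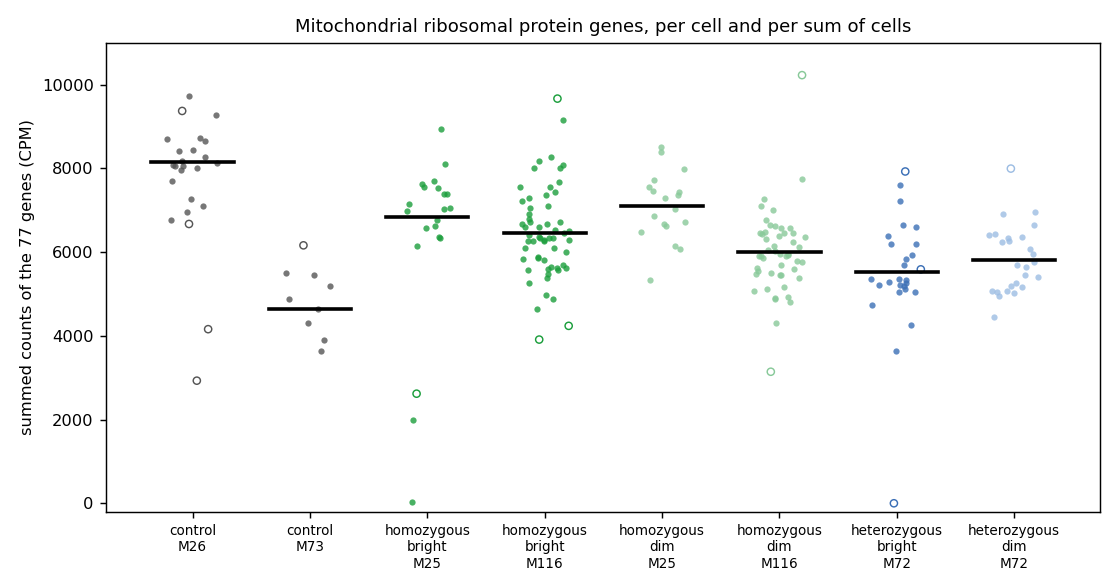
Summed counts of the 77 genes in CPM for each cell (points, open where fewer than 1000 genes were detected) and for the sum over the cells of each mouse and class (bars). The bar of control mouse M26 is the highest (8157 CPM) and that of control mouse M73 the lowest (4643 CPM), and the lowest points are a bright cell of mouse M72 at 0 CPM with few genes detected and the 3 wells of mouse M25 that were low in CM markers (30.3, 1993 and 2618 CPM).

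Single cells varied in this sum within each mouse as well. Over the 217 cells with CM markers and at least 1000 genes it ranged from 3644 to 9737 CPM, with a median of 6336 CPM. Among cells with at least 1000 genes, those of mouse M26 lay between 6763 and 9737 CPM and those of mouse M73 between 3644 and 5496 CPM, so that the cells of the control mice did not overlap. Bright and dim CMs of mouse M116 spanned 4650 to 9157 and 4302 to 7753 CPM. A typical CM had a count for most of the genes. The median was 74.5 of 77 genes per cell in mouse M26, 49 in mouse M73, 73 and 67 in the bright CMs of M25 and M116, 72 and 69 in dim CMs, and 63 and 69.5 in bright and dim CMs of mouse M72. After each cell had been thinned to 100000 counts, with 20 shallower cells left out, the medians were 70 and 45 in control, 69 and 64.5 in bright, 66.5 and 62.5 in dim and 59 and 63.5 in heterozygous CMs, in the same order of mice. Mouse M73 was lowest at an equal number of counts per cell, for the 77 genes and also over all genes, with a median of 3438 genes per thinned cell compared to 4000 to 4754 in the other sums. It had the fewest cells and the smallest total, its mitochondrial rRNA *mt-Rnr2* was the highest of all sums (228217 normalized CPM, compared to 106649 in mouse M26 and 164053 and 144481 in mouse M72 on the same plate), and their part in the low level of the 77 genes was not tested.

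The control mice differed gene by gene as well. Mouse M26 was above mouse M73 in 70 of 77 genes, with a median log2 difference of 0.70, compared to 0.44 over all genes tested. Of the 8 sums, mouse M26 was the highest for 53 genes, and mouse M73 was the lowest for 32 and the highest for 7 genes. These counts were not made over all genes, so whether they are particular to the members is not shown. In mouse M73, 10 genes had under 50 counts, namely *Mrpl9* (13), *Mrpl40* (20), *Mrpl43* (39), *Mrpl44* (24), *Mrpl49* (48), *Mrpl50* (14), *Mrps2* (3), *Mrps18b* (1), *Mrps27* (5) and *Mrps34* (30), whereas no gene had under 74 counts in any other sum. The order of the 77 genes by level was alike in the sums other than mouse M73 (Spearman's rho of 0.87 to 0.96 between pairs, over genes, which are not independent replicates) and less so with mouse M73 (0.73 to 0.78). The median coefficient of variation over the 8 sums was 28.1%, and 24.6% without mouse M73. The steadiest gene without that mouse was *Mrpl36* (8.85%), and *Mrps34* varied most (45.8%), of which only 22.2% of the exonic length is free of other genes. All levels are shares of the counts of a sum, so that fewer of these transcripts and more of all others cannot be told apart.

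None of the 77 genes passed the test between homozygous bright and control CMs (edgeR's quasi-likelihood test, Benjamini-Hochberg adjusted threshold of 0.05, 2 mice against 2), where 0.0164% of all 12203 genes tested were called. DESeq2 called none of the 77 either, and 0.869% of all genes. At an unadjusted p under 0.05 there was 1 member, compared to 6.55% of all genes, and with DESeq2 there were 3 members and 8.31% of all genes. The log2 fold change was below 0 for 55 of the 77 genes (71.4%), compared to 45.9% of all genes, with a median of -0.25 for the members and of 0.11 for all genes, a distance of -0.36. Scaled by library size instead, 32 members were below 0 and the median was 0.04, while that of all genes moved to 0.41, which left a distance of -0.37. With every cell at equal weight (limma) 9 members were below and 68 above 0, and 31 and 46 when only cells with at least 1000 genes were used, so that the direction of most members depended on scaling and weights. Bright CMs of both mice lay below both control mice for 21 members (27.3%; all genes 14.3%) and above both for 3 members (3.9%; all genes 24.6%).

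Both subunits had a negative median. Of the large-subunit genes, 36 of 50 were below 0 (median -0.21), and of the small-subunit genes 18 of 26 (median -0.28). Genes with a bacterial counterpart were below 0 in 37 of 48 cases (median -0.26) and those without in 17 of 28 cases (median -0.22). Beside the genes described below, those with both bright values under both control values included *Mrpl47* (53.6 and 52.5 in control, 32.1 and 31.8 in bright CMs), *Mrpl52* (68.9 and 56.5 against 43.2 and 39.7), *Mrpl21* (87.6 and 70.5 against 49.6 and 58.0) and *Mrpl51* (347 and 287 against 275 and 195), all of the large subunit and chosen here after their values had been seen. In *Mrpl47* the control mice were nearly equal, and its log2 fold change was -0.75 (SE 0.45, adjusted p = 0.89 in edgeR). The 5 genes with the highest levels per kb had fold changes of -0.39 (*Mrpl42*), -0.31 (*Mrps21*), -0.16 (*Mrpl30*), -0.26 (*Mrpl34*) and -0.28 (*Mrpl54*). *Mrpl42* was at 821 and 515 normalized CPM in control, 569 and 462 in bright, 671 and 462 in dim and 441 and 439 in heterozygous CMs. *Mrpl30* was at 357 and 144 in control and 241 and 211 in bright CMs, and *Mrps21* at 184 and 94.5 in control and 122 and 105 in bright CMs. For *Mrpl42*, *Mrpl30* and *Mrps21* mouse M26 was the highest of the 8 sums, and the levels in bright CMs lay between those of the control mice or below both.

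Mice M25 and M26 were on plate GL-9122b and mice M116, M72 and M73 on the GL9989 plates. Each comparison with control could thus be made within a plate set (plates named alike), with 1 mouse per group and no test. Mouse M116 was on plates GL9989-2 and GL9989-3 and mouse M73 on another GL9989 plate, so the plate was not held equal between them. Bright CMs of mouse M25 were below mouse M26 for 66 of 77 genes, with a median log2 difference of -0.51 (all genes 0.00). Bright CMs of mouse M116 were above mouse M73 for 48 genes, with a median of 0.14 (all genes 0.53). For 39 genes the direction was opposite in the plate sets, for 28 lower in both and for 10 higher in both. The same split was not counted over all genes, so these numbers have no share to be compared with. In both sets the members lay below the median of all genes, but their own medians had opposite signs.

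**Figure D3:**
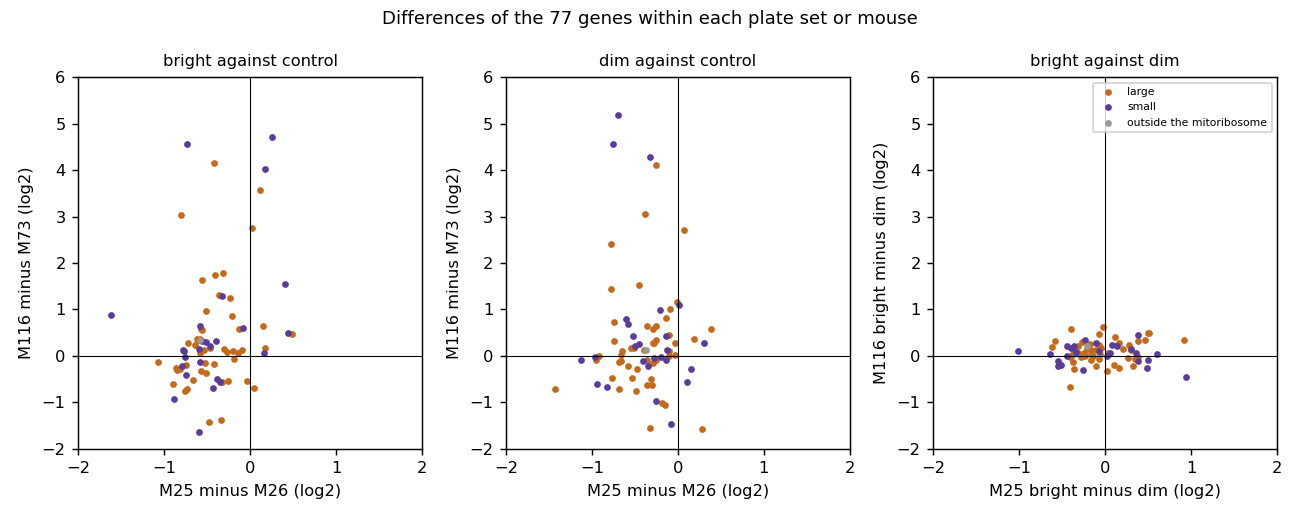
Log2 differences of the 77 genes in 1 pair of sums (horizontal axis) against another (vertical axis), coloured by subunit. For bright and dim against control, most points lie left of 0 for mice M25 and M26 (66 and 69 of 77 genes), and they spread far upwards for mice M116 and M73, where some genes of mouse M73 had very few counts; for bright against dim the points gather around 0.

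The member closest to the threshold was *Mrps18a*, a large-subunit protein. It was at 197 and 158 normalized CPM in control mice M26 and M73, at 106 and 104 in homozygous bright CMs (mice M25 and M116), at 137 and 114 in their dim CMs, and at 136 and 82.2 in bright and dim CMs of mouse M72. The groups did not overlap between bright and control CMs. The log2 fold change was -0.78 (SE 0.32), with p = 0.0485 before and 0.76 after adjustment by edgeR. With every cell at equal weight (limma) the difference of *Mrps18a* was 0.20, of the opposite sign, as were those of *Mrps11* (0.39) and *Mrpl1* (0.48). Its paralogs, which are proteins of the small subunit, had smaller or positive differences. *Mrps18c* was at 52.5 and 25.8 normalized CPM in control and at 36.7 and 31.6 in bright CMs (log2 fold change -0.22, SE 0.56). *Mrps18b*, the member seen in the fewest cells, was at 8.48 and 0.29 in control, where the latter is a single count, and at 9.52 and 6.15 in bright CMs (0.81, SE 1.56). The 3 paralogs differed in level, with 146 ± 41.1, 41.1 ± 12.4 and 6.11 ± 2.7 normalized CPM per kb for *Mrps18a*, *Mrps18c* and *Mrps18b*. Only 76.8% of the exonic length of *Mrps18c* and 69.5% of that of *Mrps18b* is free of other genes, so their reads may be undercounted. By this measure *Mrps18a* was above *Mrps18c* and *Mrps18c* above *Mrps18b* beyond their SDs. The order was the same without regard to length (129, 33.7 and 6.59 normalized CPM). The distance per kb depends on the length used, since the longest coding transcript of *Mrps18a* has 884 bp and its exons together 3690 bp.

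Of the 5 lowest fold changes in bright CMs, all but that of *Mrps18a* belonged to genes that were higher in mouse M73 than in mouse M26. *Mrps11*, which encodes a small-subunit protein with a bacterial counterpart, was at 38.9 and 93.4 normalized CPM in control mice M26 and M73 and at 25.7 and 29.7 in bright CMs. Both bright values lay below both control values, but the control mice differed more from each other than mouse M26 did from the bright CMs (log2 fold change -1.29, SE 0.58, adjusted p = 0.82). The same was seen for *Mrpl1* (64.7 and 118 in control, 46.2 and 43.8 in bright CMs; log2 fold change -1.05) and *Mrps30* (42.9 and 76.6 against 33.9 and 29.4; -0.94). *Mrps22* was at 37.5 and 65.8 in control and at 20.2 and 34.7 in bright CMs (-0.94). Without mouse M73 the fold changes were -0.48 for *Mrps11*, -0.52 for *Mrpl1*, -0.43 for *Mrps30* and -0.44 for *Mrps22*, and without mouse M26 they were -1.79, -1.43, -1.31 and -1.30. Without bright CMs of mouse M25 *Mrps22* was at -0.56. *Mrpl46*, the neighbour that shares a start region with *Mrps11*, did not share its high value in mouse M73, with 86.0 and 55.7 in control and 51.1 and 48.4 in bright CMs (-0.53). The highest fold changes belonged to genes that were low in mouse M73, namely *Mrpl50* (0.95), *Mrps18b* (0.81), *Mrps31* (0.80), *Mrps2* (0.79) and *Mrpl44* (0.71). Without mouse M73 these values were 0.09, -0.11, 0.29, -0.16 and -0.10, and without mouse M26 they were 3.58, 4.69, 1.64, 5.40 and 2.87. Of these, *Mrps31* had the most counts in mouse M73 (71), at 54.2 and 20.6 normalized CPM in control and 71.8 and 60 in bright CMs. Both bright values exceeded both control values for *Mrps31* and *Mrpl50*, and adjusted p-values were 0.92 and 0.95 in edgeR's test.

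The members linked to human cardiomyopathy had different patterns. *Mrpl44*, an RNase III-like protein of the large subunit, was at 56.5 and 6.96 normalized CPM in control, 57.3 and 47.2 in bright and 59.6 and 45.9 in dim CMs of mice M25 and M116. Without mouse M73, the 7 other sums of *Mrpl44* lay close together (coefficient of variation 12%). *Mrpl3*, a large-subunit protein with a bacterial counterpart, was at 105 and 22.6 in control, 84.1 and 78.6 in bright and 61.1 and 61.9 in dim CMs. *Mrps14*, a small-subunit protein, was at 160 and 80.0 in control, 107 and 125 in bright and 145 and 108 in dim CMs. In *Mrpl44*, *Mrpl3* and *Mrps14* the control mice enclosed the homozygous values or lay within 4 normalized CPM of them, whereas *Mrps22* was lower in all 4 homozygous sums, with 31.4 and 33.7 in dim CMs, than in either control mouse.

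Members with known positions in the ribosome lay within the range of the control mice or below it. *Mrpl12*, the stalk protein that contacts translation factors, was at 208 and 139 normalized CPM in control, 114 and 115 in bright and 149 and 113 in dim CMs (log2 fold change of bright against control -0.61, SE 0.34). *Mrpl10*, on which the stalk is anchored, was at 44.2 and 37.7 in control, 26.1 and 22.3 in bright and 34.6 and 35.5 in dim CMs (-0.78, SE 0.52). Both genes were below both control mice in bright CMs of both mice, with adjusted p-values of 0.88 and 0.91 from edgeR. *Mrpl11*, at the stalk base, was at 115 and 38.3 in control and 76.5 and 39.7 in bright CMs. *Mrpl45*, which attaches the exit of the nascent chain to the inner membrane, was at 136 and 87.9 in control, 87.1 and 103 in bright and 71.8 and 88.2 in dim CMs. *Mrps12*, a protein of the decoding centre, was at 113 and 34.5 in control and 89.7 and 84.0 in bright CMs. The last of these named genes, *Mrps36*, the dehydrogenase subunit, was at 116.2 and 50.2 in control, 77.7 and 64.0 in bright and 89.9 and 55.1 in dim CMs, and control mice enclosed all 4 homozygous values of *Mrps36*.

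The same control sums were compared with homozygous dim CMs. No gene was called, among members or over all 12195 genes (0%), with 0 members and 6.22% of all genes at an unadjusted p under 0.05; DESeq2 called no member and 0.451% of all genes, with 0 members and 7.64% of all genes at its unadjusted p under 0.05. The log2 fold change was below 0 for 57 members (74.0%; all genes 45.8%), with a median of -0.19 compared to 0.10 for all genes. Scaled by library size, 32 members were below and 45 above 0 (median 0.08; all genes 0.38), and with every cell at equal weight (limma) 3 were below and 74 above 0 (median 0.94; all genes 0.39), so that the members lay above all genes there. The median was -0.35 between dim CMs of mouse M25 and mouse M26 and 0.10 between mice M116 and M73 (all genes 0.01 and 0.52). Both dim values lay below both control values for 20 members (26%; all genes 13.7%) and above them for *Mrpl32* alone (1.30%; all genes 24.1%). Endothelial and immune markers, unlike those of fibroblasts and mural cells, were highest in these dim sums of mice M25 and M116, with 194 and 163 CPM of endothelial markers (control 54.6 and 128, bright 61.2 and 69.6) and 72.7 and 62.5 CPM of immune markers (control 2.09 and 12, bright 0.26 and 2.00). The leukocyte marker *Ptprc* was at 0 and 5.02 CPM in the dim sums, and the part of these cells in the differences of dim CMs was not tested.

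The lowest member in dim CMs was *Mrpl24*, at 25.5 and 17.4 normalized CPM in control and at 9.41 and 10.5 in dim CMs of mice M25 and M116 (log2 fold change -1.12, SE 0.76, adjusted p = 0.98 in edgeR). *Mrpl24*, a large-subunit protein with a bacterial counterpart, has 73.7% of its exonic length free of other genes. *Mrpl1* (-1.01) and *Mrps11* (-0.92) were low here too, with the same values of mouse M73, and without that mouse they were at -0.50 and -0.14. *Mrps17* was at 125 and 113 in control and at 65.1 and 74.5 in dim CMs (-0.79, SE 0.36), and *Mrps16* at 175 and 140 in control and at 99 and 88.1 in dim CMs (-0.77, SE 0.35). Both *Mrps17* and *Mrps16*, small-subunit proteins with bacterial counterparts, were close in the control mice and lower in all 4 homozygous sums, with adjusted p-values of 0.87 and 0.86. The highest fold changes were those of *Mrpl44* (0.71), *Mrpl9* (0.65), *Mrps18b* (0.65), *Mrps27* (0.48) and *Mrps2* (0.47), all of which rested on under 25 counts in mouse M73. When mouse M26 was left out and mouse M73 was the only control, *Mrpl9*, *Mrpl44*, *Mrpl50*, *Mrps2* and *Mrps27* passed the threshold in dim CMs. These 5 are 6.49% of the members, near the 5.89% of all genes (827 of 14036) that the same fit called.

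No difference between bright and dim CMs of the homozygous mice passed the test in these genes. None of the 77 was called, nor was any of 13439 genes (0%), and 0 members but 4.12% of all genes had an unadjusted p under 0.05; DESeq2 called 0 members and 0.662% of all genes, with 0 members and 5.86% of all genes at its unadjusted p under 0.05. The fold change was above 0 for 37 and below 0 for 40 members (51.9%; all genes 50.5%), and the median was -0.0039 (all genes -0.0073). The fold changes of all members lay between -0.54 and 0.64 on the log2 scale. Within mice, mouse M25 had a median of -0.07 and mouse M116 one of 0.09. Both bright values were above both dim values for 9 members (11.7%; all genes 15.3%) and below them for 6 (7.79%; all genes 15.8%).

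At the ends of this range were *Mrpl24* (0.64, SE 0.45), *Mrpl38* (0.49), *Mrpl50* (0.49), *Mrps31* (0.41) and *Mrpl3* (0.40) on the side of bright CMs, and *Mrpl10* (-0.54, SE 0.30), *Mrps25* (-0.44), *Mrps10* (-0.39), *Mrps6* (-0.39) and *Mrps11* (-0.36) on that of dim CMs. *Mrpl38*, a large-subunit protein without a bacterial counterpart, was at 50.7 and 67.7 normalized CPM in bright and at 35.7 and 47.9 in dim CMs of mice M25 and M116. *Mrps25*, of which 30.2% of the exonic length is free of other genes, was at 24.0 and 40.1 in bright and 48.6 and 37.6 in dim CMs, so that the mice went in opposite directions. The abundant *Mrpl42* was at 569 and 462 in bright and 671 and 462 in dim CMs. Without the 3 wells low in CM markers the median of the members was 0.05 for bright against dim and -0.20 for bright against control, and no member was called.

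In the heterozygous mouse M72, for which there is no replicate and whose transgene counts go against the brightness labels, CMs labelled bright were above those labelled dim for 46 of the 77 genes, with a median log2 difference of 0.07. The range was wide, from -1.33 for *Mrps30* (10.7 and 27.2 normalized CPM in bright and dim CMs) to 1.53 for *Mrpl1* (64.4 and 22.3). The direction in mouse M72 was opposite to a shared direction of both homozygous mice for 21 members (27.3%), compared to 27.0% of all genes. With the labels of mouse M72 exchanged, the opposite direction would be found for 11 members (14.3%) and 24.5% of all genes, so that these shares depend on which CMs of mouse M72 are taken as bright.

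The remaining parts of the mitochondrial translation machinery were set beside the 77 genes. None of their genes was called in any of the 3 comparisons. The 5 mitoribosome proteins with other symbols (*Dap3*, *Ptcd3*, *Aurkaip1*, *Chchd1* and *Gadd45gip1*) were all below 0 in bright against control CMs, with a median of -0.43. *Gadd45gip1*, a large-subunit protein also known as CRIF1, was at 22.9 and 22.3 normalized CPM in control, 11.5 and 13.9 in bright, 9.14 and 11.3 in dim and 15.3 and 14.8 in heterozygous CMs. The control mice were alike in *Gadd45gip1*, and all 6 transgenic values were lower (log2 fold change -0.86 in bright and -1.16 in dim CMs, adjusted p of 0.93 and 0.97 in edgeR's test). *Gadd45gip1* was named after its values had been seen. Of 24 assembly factors, 12 were above and 12 below 0, with a median of 0.03. Of 15 translation factors tested, 7 were above 0 (median -0.05). *Tufm*, the elongation factor that delivers tRNAs, was at 212 and 220 in control and 158 and 167 in bright CMs (log2 fold change -0.43). In bright and dim CMs of mouse M72 *Tufm* was at 143 and 204. *Gfm1* (0.24) and *Lrpprc* (0.55) went the other way in bright against control CMs. These translation factors too were named after their values had been seen. Of 20 mitochondrial aminoacyl-tRNA synthetases, 10 were above 0 (median 0.02), among which *Lars2* is uncertain because part of its reads can stem from *mt-Rnr2*.

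Other gene groups of the same mitochondria or of cytosolic translation gave different ratios to the 77 genes. For each 100 counts on the nuclear genes of complex I there were 24.1 and 18.6 counts on the 77 genes in control mice M26 and M73, 23.9 and 26.2 in bright, 23.2 and 25.7 in dim and 23.5 and 23.1 in heterozygous CMs. Apart from mouse M73, this ratio kept within 23.1 and 26.2, although the level of the 77 genes ranged from 5525 to 8157 CPM in the same 7 sums. The complex I genes themselves were below 0 in 35 of 36 cases in bright against control CMs (median -0.42; no gene called). Per 100 counts on cytosolic ribosomal protein genes there were 66.7 and 42.5 counts on the 77 genes in control, 48.6 and 52.1 in bright, 59.0 and 57.7 in dim and 53.6 and 46.1 in heterozygous CMs. In both homozygous mice bright CMs were below dim CMs in this ratio. The bright sum of mouse M25 includes the 3 wells low in CM markers, and neither this ratio nor the cytosolic differences are given without them. Of 85 cytosolic ribosomal protein genes, 79 were above 0 in bright against dim CMs (median 0.22; 0 called), whereas the 77 mitochondrial ones had a median of -0.0039. The mitochondrially encoded protein genes, whose transcripts this ribosome translates, were counted unevenly: of 13 genes, 6 (*COX2*, *COX3*, *ATP6*, *ATP8*, *ND3* and *ND4L*) stayed below 10 normalized CPM in every sum, whereas the other 7 were never below 3299, and their summed counts rest on these 7. Per 100 of these counts there were 5.02 and 4.72 in control, 4.51 and 4.4 in bright, 4.56 and 3.9 in dim and 4.69 and 5.68 in heterozygous CMs, and all 4 homozygous values were below both control values. The ratio of large-subunit to small-subunit counts was 2.53 and 2.71 in control, 2.49 and 2.64 in bright, 2.57 and 2.67 in dim and 2.72 and 2.62 in heterozygous CMs and thus ranged from 2.49 to 2.72. With 2 mice per group, an exact permutation test of any of these ratios could not fall below p = 0.333, and none was run.

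**Figure D4:**
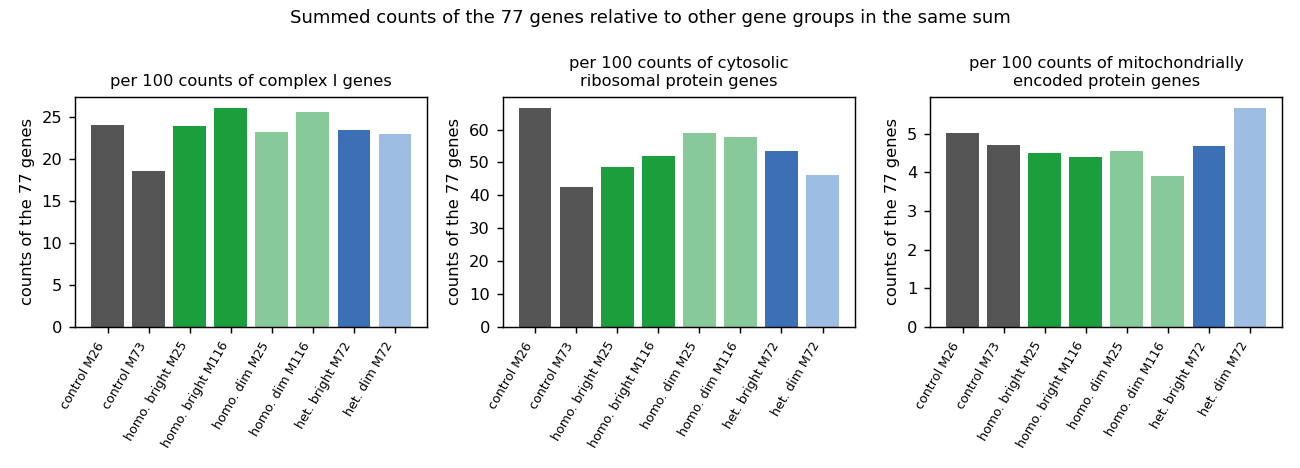
Counts on the 77 genes per 100 counts on 3 other gene groups in each of the 8 sums (bars, 1 value per sum, no error). Against complex I the bars lie between 23.1 and 26.2 except for control mouse M73 (18.6), and against the mitochondrially encoded protein genes (7 of 13 above 10 normalized CPM) all 4 homozygous bars (3.9 to 4.56) are below the control bars (4.72 and 5.02).

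The median of the 77 genes in bright against control CMs was -0.50 without mouse M73 and 0.23 without mouse M26, where those of all genes were 0.20 and 0.94. The distance of the members from all genes was -0.70 and -0.71 in these fits, which tested 14511 and 14064 genes, compared to -0.36 with both control mice and 12203 genes, and -0.46 and -0.22 without bright CMs of mice M25 and M116. With every cell at equal weight the members were at 0.65 and all genes at 0.32, so that the distance changed its sign, and with equal weight over cells with at least 1000 genes it was -0.02, whereas no choice moved the median of bright against dim CMs beyond -0.31 or 0.16.

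**Figure D5:**
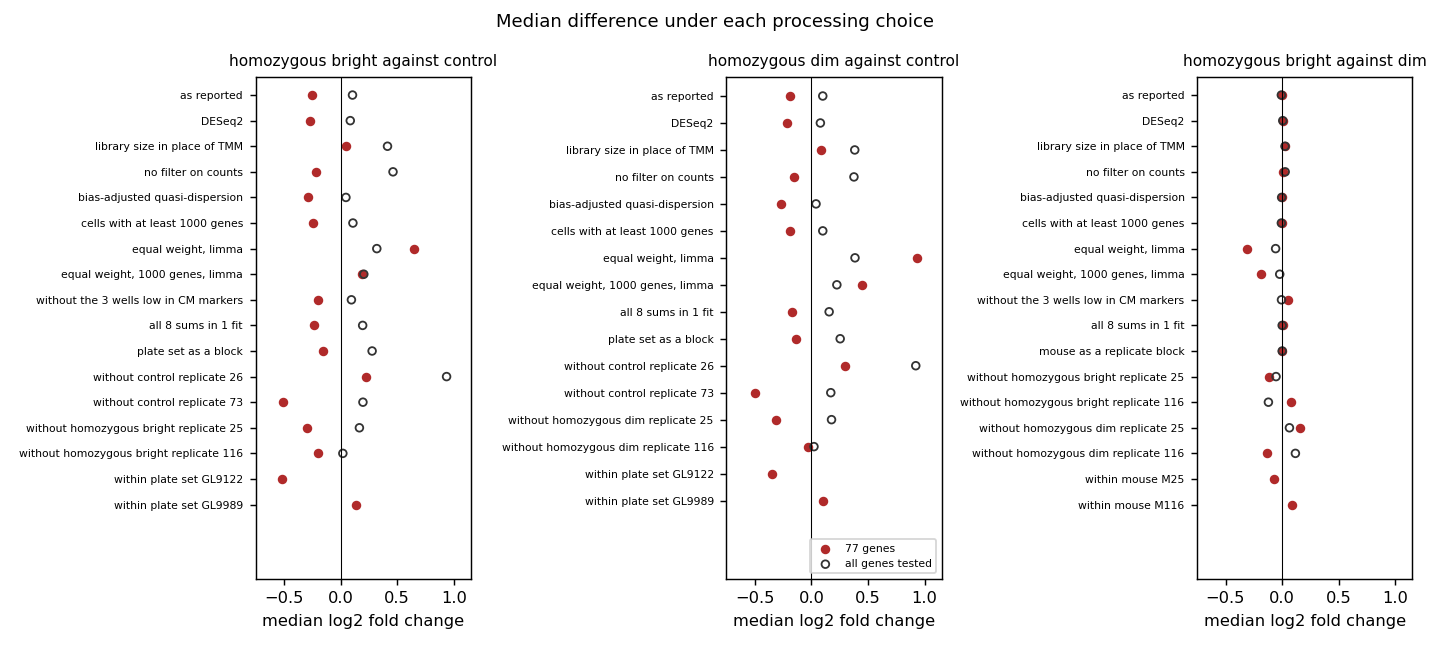
Median log2 fold change of the 77 genes (filled) and of all genes tested (open, not drawn within a plate set or mouse) for each comparison under each processing choice. The median of bright against control CMs is -0.25 as reported, 0.65 when each cell is weighted equally, -0.50 without control mouse M73 and 0.23 without control mouse M26; that of bright against dim CMs stays between -0.31 and 0.16.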

How the data were processed

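Single CMs were sequenced with SMART-seq2 (paired 75-base reads according to the study). The authors aligned reads by STAR against a mouse reference extended by human BAG3 and eGFP, and deposited raw counts per gene from STAR's GeneCounts option, as whole numbers without normalization. Genome build, annotation and strand setting are not given in the sources used here; without strand, reads on exons of overlapping genes may be counted for none of them. Pseudogenes took few reads (*Mrpl23-ps1* 604 counts and *Mrpl23* 6875).

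Cells of 1 mouse and fluorescence class were pooled by adding their counts, since the animal is the replicate. The 8 sums held 4096609 to 40508124 counts and 19019 to 261219 counts on the 77 genes. Each comparison used 4 sums in edgeR 4.0.16 (R 4.3.3): filterByExpr, TMM factors, glmQLFit, glmQLFTest and Benjamini-Hochberg adjustment over all genes tested. Within-set and within-mouse differences are log2 normalized CPM with a prior count of 2. The code of the test was also run on simulated counts with large, known changes and the same spread for all genes. That run does not show how the test behaves at the spread between these mice. Alternatives were DESeq2 1.42.0, limma 3.58.1 with equal weight per cell (log2 of CPM + 1), other scalings, filters and blocks, and each mouse left out. 2 alternatives were added after the data had been seen: leaving out 3 wells low in CM markers, and equal weights over cells with at least 1000 genes.

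The members and lists were chosen with earlier results of these data known. The genes named were the 5 highest and 5 lowest fold changes in each comparison, the 5 highest levels per kb, a list of genes with known roles, and any gene past the threshold; others were named after their values had been seen. In the homozygous mice, bright and dim CMs are paired by animal. Over 13439 genes (no independent replicates), the log2 differences of M25 and M116 in bright CMs had a Pearson correlation of 0.075 (Spearman 0.11) with those in dim CMs, and over the members 0.31. Exonic overlap and transcript length come from GENCODE M21 (GRCm38), which may differ from the authors' annotation, and start regions from RefSeq (GRCm38.p6).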

Additional observations from a re-analysis of the deposited data

Results flagged for a closer look

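In 8 of the 33 named genes, the difference between bright and dim CMs had 1 direction in both homozygous mice and the opposite one in the heterozygous mouse M72. The log2 difference in mouse M72 was -0.43 for *Mrpl3*, 0.32 for *Mrpl10*, -0.72 for *Mrpl24*, 0.092 for *Mrpl30*, -0.79 for *Mrpl38*, 0.068 for *Mrps6*, 0.092 for *Mrps10* and 0.73 for *Mrps18a*. In mice M25 and M116 it was 0.46 and 0.35 for *Mrpl3*, -0.41 and -0.67 for *Mrpl10*, 0.92 and 0.35 for *Mrpl24*, 0.51 and 0.50 for *Mrpl38*, and -0.37 and -0.14 for *Mrps18a*. The difference between the genotypes was not tested, since there was 1 heterozygous mouse. The share over all members (27.3%) was near that over all genes (27.0%), and human BAG3 counts in mouse M72 go against its brightness labels (105 CPM in bright and 251 CPM in dim CMs). With the labels of mouse M72 exchanged, 6 other named genes would have opposite directions in place of these 8, and 11 of all members (14.3%; all genes 24.5%).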

How the results depend on the processing

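Numbers of called members were 0 in every comparison and alternative run, except that 5 genes passed in dim against control CMs without control mouse M26 (6.49% of members; 827 of 14036 genes, 5.89%, compared to 0 of all genes with both control mice); that fit takes its spread from the other group. The mouse as a replicate block for bright against dim CMs gave a median of -0.00047 with 0 members called and changed no call. Leaving out 1 sum gave medians of -0.50 to 0.23 (bright against control; the highest without control mouse M26), -0.50 to 0.29 with 0 to 5 called (dim against control) and -0.13 to 0.16 (bright against dim). With equal weight per cell (limma) the medians were 0.65, 0.94 and -0.31 in the order of these comparisons, and with cells of at least 1000 genes only, 0.19, 0.45 and -0.19; the cause was not tested. Under the former, *Mrps11* (0.39), *Mrpl1* (0.48) and *Mrps18a* (0.20) in bright and *Mrpl1* (0.78), *Mrps11* (1.23) and *Mrps16* (0.62) in dim against control CMs, and *Mrpl50* (-0.13) in bright against dim CMs, changed sign; under the latter *Mrpl1* (0.074 in bright, 0.24 in dim), *Mrps11* (0.79 in dim) and *Mrpl50* (-0.0040) did. Across left-out sums, in bright against control CMs *Mrps18b* ranged from -0.11 to 4.69, *Mrps2* from -0.16 to 5.40 and *Mrpl44* from -0.10 to 2.87, in dim against control CMs *Mrpl44* from -0.10 to 2.90, *Mrpl9* from -0.26 to 4.12, *Mrps18b* from -0.26 to 4.57, *Mrps27* from -0.45 to 4.38 and *Mrps2* from -0.48 to 5.11, and in bright against dim CMs *Mrps6* from -0.74 to 0.11; each sign below 0 for the control comparisons came without mouse M73. With TMM scaling the summed level moved beyond the SD between mice in homozygous bright CMs (6154 CPM) but not in control (7214 CPM). In mouse M72, where only a counting interval is at hand, it left that interval with TMM scaling (5818 and 5627 CPM in bright and dim CMs) and as a mean over cells (5475 CPM in bright CMs). Without mitochondrially encoded genes in the total all 5 levels moved beyond these errors (9001, 8874, 8855, 7798 and 7971 CPM in control, homozygous bright and dim, and heterozygous bright and dim CMs). The 9 cells of mouse M73 and 2 mice per group limit all comparisons with control.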
